A study of Mus musculus with 2 samples.

Results

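Immediate early genes are genes that cells switch on within minutes of a stimulus without needing new protein, and the 10 described here were fixed by name: Fos, Fosb, Fosl2, Jun, Junb, Jund, Egr1, Ier2, Atf3 and Dusp1. They are 10 of the 43346 mouse genes quantified, and all 10 were found in the tables. The tissue was embryonic facial prominence, from which the face and jaws form, taken from B6NCrl mouse embryos at embryonic day 15.5, pooled male and female, with no treatment or mutation named. There was a single group of 2 biological replicates that share a donor label: 78 embryos were pooled for replicate 1 and 62 for replicate 2. Each library was built by total RNA-seq from 10 ng of mirVana-extracted RNA longer than 200 nucleotides, with spike-in RNA added. With 1 group there is nothing to contrast except the 2 libraries with each other, so levels are described, ratios between libraries carry a counting interval, and no test or p-value is given.

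Products of the Jun and Fos families dimerise through leucine zippers to form AP-1, a transcription factor of growth, differentiation and stress responses. Fos proteins cannot pair with each other and need a Jun partner, while Jun proteins can also pair among themselves. MAP kinases and the factors SRF, ELK and CREB switch these genes on, and their messenger RNAs are short-lived, in part through AU-rich elements in the 3' UTR. Several members are also known to be induced when tissue is dissected, cooled or dissociated. Differences between libraries in their level are therefore commonly read as a sign of handling. A response shared by both libraries would leave no such difference, and with a single group it was not tested. In skeletal tissue AP-1 is known for its part in osteoblasts and osteoclasts.

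Promoter windows of 4 members are shown because CREB and related factors are known to act on this class of gene through the letters TGACG. Sequences are from the RefSeq promoter table (GRCm38.p6), run 5' to 3' on the gene's strand and end at the base before the RefSeq start, except that of Dusp1, which ends 47 bases earlier, where the annotated transcript begins. Capitals mark TGACG on either strand and TATAAA. The windows are chr12:85473690-85473889 on the plus strand for Fos and, on the minus strand, chr7:19310046-19310245 for Fosb, chr17:26508520-26508672 for Dusp1 and chr4:95052223-95052422 for Jun.
Fos: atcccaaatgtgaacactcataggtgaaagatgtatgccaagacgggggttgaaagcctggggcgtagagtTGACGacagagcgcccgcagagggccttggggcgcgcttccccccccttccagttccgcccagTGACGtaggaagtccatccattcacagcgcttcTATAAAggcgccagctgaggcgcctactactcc
Fosb: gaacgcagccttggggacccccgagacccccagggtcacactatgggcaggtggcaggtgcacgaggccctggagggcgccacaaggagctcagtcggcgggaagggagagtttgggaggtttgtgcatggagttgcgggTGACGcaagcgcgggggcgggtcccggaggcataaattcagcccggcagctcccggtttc
Dusp1: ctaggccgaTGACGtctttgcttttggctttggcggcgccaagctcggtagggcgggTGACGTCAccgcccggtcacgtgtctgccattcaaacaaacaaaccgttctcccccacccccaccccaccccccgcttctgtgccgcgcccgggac
Jun: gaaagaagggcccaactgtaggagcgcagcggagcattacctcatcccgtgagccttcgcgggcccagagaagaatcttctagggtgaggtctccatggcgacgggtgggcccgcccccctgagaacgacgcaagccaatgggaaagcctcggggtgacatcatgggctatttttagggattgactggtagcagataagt

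Of the 10 members, 8 had an entry in that table. For 6 (Fos, Fosb, Jun, Junb, Dusp1 and Atf3) the RefSeq start lay within 60 bases of their most counted transcript's GENCODE M21 start. Motifs were searched on both strands of the 200 bases before the start. TGACG was found in 5 of the 6 members near that start, all but Jun, against 15.7% of all 32851 promoters in the table. Those promoters were not filtered by their distance from a GENCODE start. For Fosl2 the counted model had 5855 nt against 6537 nt in M21, and for Jund 2878 nt against 1668 nt. Distance from the start of the counted model was not measured, so neither RefSeq start is shown to lie far from it. Neither Fosl2 nor Jund held TGACG, so 5 of the 8 members with an entry held it. In Fos it lay at -129 and -66 and in Fosb at -60, counted from the RefSeq start to the first base of the match. Dusp1 held it 3 times, at -191, -143 and -140, and the last 2 overlap in the full element TGACGTCA, which 1.47% of all promoters hold. TATAAA was found in Fos alone, at -33 (9.96% of all promoters). CCAAT was found in Jun and Junb (29.3%) and GGGCGG in 5 of the 6, all but Junb (31.0%). The AP-1 site TGAGTCA (3.66%) and the CArG box that SRF binds (1.18%) were found in none of them, and the serum response element for which Fos is known lies further upstream than this window. Variants of these motifs were not searched: the Jun window holds tgacatca, which differs from TGACGTCA in a single letter. Each match is a run of letters, not a measured binding site.

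Short stretches of 3' UTR show the AU-rich pentamer ATTTA, which proteins such as tristetraprolin bind to speed decay of the messenger RNA. They are the 24-base windows with most pentamers (the first where windows tie), given in capitals, from GENCODE M21 (GRCm38), on the gene's strand and as DNA letters. They are chr17:26506167-26506190 for Dusp1, chr12:85477096-85477119 for Fos, chr4:95049210-95049233 for Jun and chr7:19303338-19303361 for Fosb.
Dusp1: tgggagctggtccttATTTATTTA
Fos: tttattgtgttttcaATTTATTTA
Jun: ATTTAtaatcataggaaagATTTA
Fosb: ccaaaccccacccccagctATTTA

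In the most counted transcript of each member, 9 of 10 members held at least 1 ATTTA in the 3' UTR, against 66.2% of 20676 genes, and 5 held 3 or more, against 36.3%. For the other genes the coding transcript with the longest 3' UTR was taken, so members and background are not measured alike. The nonamer TTATTTATT was found in 3 members, Dusp1, Fos and Fosl2, against 7.78% of genes. Per kilobase of 3' UTR, Dusp1 had 5.80 pentamers, Fos 4.91, Junb 4.12, Jun 3.24 and Atf3 2.53. Jund had 1.88, Fosl2 1.72, Egr1 1.68 and Fosb 0.466, and Ier2 had none, where the median gene had 1.28. The members with the densest pentamers are thus the phosphatase gene Dusp1 and 3 of the AP-1 genes.

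Levels are given in TPM, a share of all transcripts that divides by transcript length so that genes can be set side by side. The members spanned a wide range, from Jun at 78.4 ± 8.06 TPM (SD, n = 2, as for each level below) to Fosb at 0.280 ± 0.156 TPM. Their order was the same in both libraries: Jun, Ier2, Jund, Junb, Dusp1, Egr1, Fos, Fosl2, Atf3, Fosb. Among neighbours in that order, only Dusp1 and Egr1 had overlapping ranges. All members but Fosb reached 1 TPM in both libraries, and the median member stood at 21.2 TPM in replicate 1 and 25.4 TPM in replicate 2. For scale, the median over the 14052 protein coding genes at 1 TPM or more in both libraries was 18.1 TPM. Deposited TPM sums over genes and spike-ins, which took 6.42% of it in replicate 1 and 10.1% in replicate 2, so TPM of mouse genes is held down slightly more in replicate 2. The 10 genes together summed to 293.9 TPM in replicate 1 and 288.4 TPM in replicate 2.

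**Figure D1:**
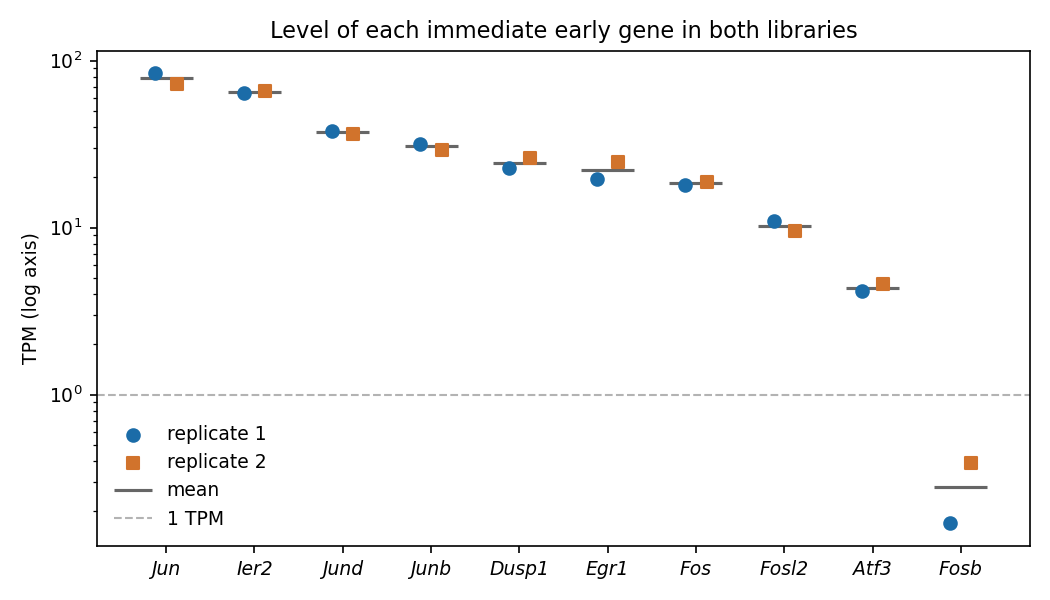
Level in TPM (log axis) of the 10 immediate early genes, in descending order of the mean, with replicate 1 as circles, replicate 2 as squares and the mean of both as a bar. The points of each gene lie close together compared with the distance from Jun at 78.4 TPM to Fosb at 0.280 TPM, and Fosb is the only gene below the dashed line at 1 TPM.

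Jun, the founding AP-1 partner and a target of JNK, was the highest member, at 84.1 TPM in replicate 1 and 72.7 TPM in replicate 2, from 6401 and 5771 expected counts. It is a gene of 1 exon on chromosome 4 (95049034 to 95052222, minus strand, GRCm38) and stood above 85.9% of the detected coding genes. Replicate 2 was lower by a log2 ratio of -0.21 after TMM scaling (95% counting interval -0.26 to -0.16), or 1.16-fold lower. Counting intervals here and below are exact Clopper-Pearson intervals and cover counting error only, not the variation between pools of embryos.

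Jund, the Jun protein known for a steady level and for slowing growth, stood at 38.1 TPM and 36.4 TPM (37.2 ± 1.16), from 2606 and 2601 counts. Its log2 ratio was -0.06 (interval -0.14 to 0.02) under TMM, by which the libraries were not distinguishable at this depth. Its level carries a limit of annotation: the antisense gene Gm11175 overlaps 919 nt of Jund (chromosome 8, 70698949 to 70700616, plus strand), was itself at 67.4 TPM and 60.2 TPM, and took 737.2 and 686.7 counts. The sources used here do not give the strand setting of the counting, so reads of Jund and Gm11175 may not have been told apart. The model counted by the authors was also longer, 2878 nt, than the 1668 nt of the annotation that gives these coordinates.

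Junb, a Jun protein that often acts against Jun in proliferation, stood at 31.9 TPM and 29.4 TPM (30.6 ± 1.77), from 1367 and 1314 counts. The gene spans 84974484 to 84978718 of chromosome 8 on the minus strand, and its counted transcript, from 84976910 to 84978718, has 1 exon. Its log2 ratio was -0.12 (interval -0.23 to -0.01). Under TMM the intervals of Jun and Junb thus lay below equal and that of Jund included it, and by spike-in counts the log2 ratios were -0.86 for Jun, -0.77 for Junb and -0.71 for Jund.

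Fos, the AP-1 partner most used as a marker of recent stimulation, stood at 18.1 TPM and 18.6 TPM (18.4 ± 0.361), from 832 and 924 counts. The gene is on chromosome 12 from 85473890 to 85477273, plus strand, and 50.4% of the detected coding genes stood below it. With a log2 ratio of 0.09 (interval -0.05 to 0.23), its level was not distinguishable between the libraries under TMM.

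Fosl2, which encodes FRA2, a Fos protein with a part in bone cells, stood at 10.9 TPM and 9.58 TPM (10.3 ± 0.948), from 1549 and 1417 counts. On chromosome 5 it spans 32135801 to 32157842, plus strand. Replicate 2 over replicate 1 gave a log2 ratio of -0.19 (interval -0.29 to -0.08), or 1.14-fold lower in replicate 2. Of Fos and Fosl2, only Fosl2 had an interval that excludes an equal level under TMM, and by spike-in counts their log2 ratios were -0.56 and -0.84.

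Fosb, a Fos protein gene known for its lasting splice form in stimulated neurons, was the lowest member, at 0.170 TPM and 0.390 TPM, from 15 and 37 counts. Under TMM this is a log2 ratio of 1.14 (interval 0.34 to 2.21), or 2.21-fold higher in replicate 2, with an interval of 1.27-fold to 4.64-fold. The gene spans 19302696 to 19310051 of chromosome 7, minus strand. The tables hold 1 transcript model of Fosb, so its long and short forms cannot be told apart.

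Within the Fos family, the fourth gene Fosl1 included, Fos took 61.3% of the summed TPM in replicate 1 and 64.0% in replicate 2, and Fosl2 took 36.9% and 32.9%. Fosl1 took 1.28% and 1.75%, and Fosb 0.574% and 1.34%. Within the Jun family, Jun took 54.6% and 52.5%, Jund 24.7% and 26.3%, and Junb 20.7% and 21.2%. The Jun family summed to 154.0 TPM and 138.5 TPM and the Fos family to 29.6 TPM and 29.1 TPM, a ratio of 5.20 in replicate 1 and 4.75 in replicate 2. Transcripts of Jun genes thus outnumbered those of their Fos partners in both libraries, and 2 genes, Fos and Fosl2, made up nearly the whole Fos family.

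**Figure D2:**
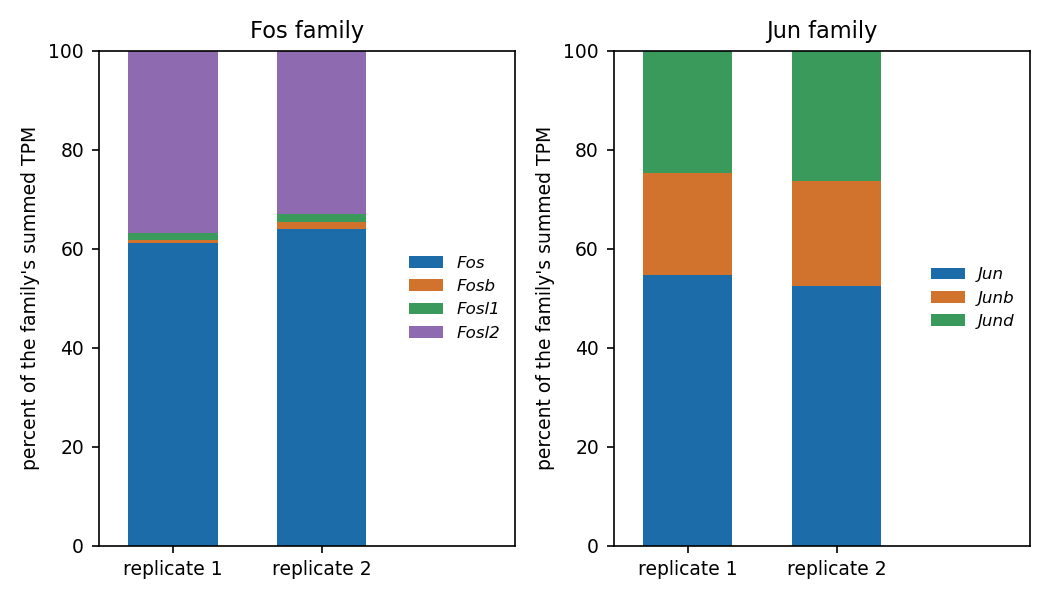
Percent of the summed TPM of the Fos family (left) and Jun family (right) taken by each gene, in stacked bars for replicate 1 and replicate 2. Fos and Fosl2 fill nearly the whole Fos bar, with Fosl1 at 1.28% and 1.75%, and Jun takes 54.6% and 52.5% of the Jun bar.

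Atf3, a bZIP factor induced by many stresses that also pairs with Jun proteins, stood at 4.16 TPM and 4.58 TPM (4.37 ± 0.297), from 193 and 222 counts. Its place is chromosome 1 from 191170296 to 191218039 on the minus strand, with its most counted transcript from 191170296 to 191183340. Of detected coding genes, 17.3% stood below Atf3. The log2 ratio of 0.14 (interval -0.14 to 0.43) under TMM was not distinguishable from equal at this depth, and by spike-in counts it was -0.51.

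Egr1, a zinc finger factor induced through SRF, stood at 19.6 TPM and 24.6 TPM (22.1 ± 3.51), from 1486 and 1929 counts. The gene is on chromosome 18 from 34859823 to 34864984, plus strand. A log2 ratio of 0.32 (interval 0.22 to 0.42), with replicate 2 the higher under TMM and the lower by spike-in counts, was under TMM the furthest from equal among the 9 members with more than 100 counts in each library.

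Ier2, a short intronless gene of the same early response, stood at 64.0 TPM and 65.9 TPM (65.0 ± 1.36), from 2244 and 2411 counts. It spans 84661331 to 84662852 of chromosome 8, minus strand, and 82.5% of detected coding genes stood below it. Under TMM the libraries differed by a log2 ratio of 0.04 (interval -0.04 to 0.13), which does not separate them at this depth. By spike-in counts the log2 ratio was -0.61.

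Dusp1, a phosphatase that switches off MAP kinases and so closes the response, stood at 22.8 TPM and 26.2 TPM (24.5 ± 2.38), from 1014 and 1208 counts. The gene spans 26505590 to 26562128 of chromosome 17, minus strand, and its most counted transcript runs from 26505590 to 26508519. Replicate 2 was higher by a log2 ratio of 0.19 (interval 0.07 to 0.31), or 1.14-fold, under TMM, and lower, at -0.46, by spike-in counts. Dusp6, the highest of the other MAP kinase phosphatases, was 2.23 times as high as Dusp1 in replicate 1 and 1.93 times in replicate 2.

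**Figure D3:**
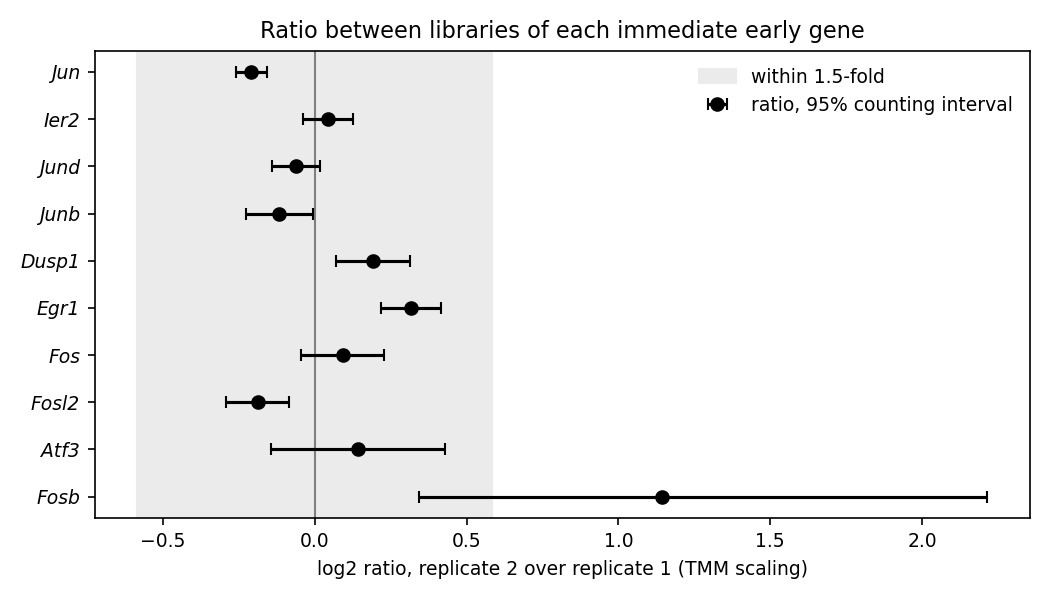
Log2 ratio of replicate 2 over replicate 1 for each member after TMM scaling, with the 95% counting interval as a bar and the range within 1.5-fold in grey. Only Fosb, at 1.14, lies outside the grey range, and its interval (0.34 to 2.21) is the widest.

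In sum, 1 of 10 members, Fosb, was past 1.5-fold between the libraries, where 9.08% of the 18318 genes tested (those reaching 10 counts in each library) were. Of all genes tested, 4.78% were past it with replicate 2 higher and 4.31% with replicate 2 lower. The share of members past 1.5-fold was thus near the background, and Fosb is among the genes under 100 counts in a library, of which 27.7% were past it. For the other 9 members, each with over 100 counts a library, the whole counting interval lay within 1.5-fold, and 2.55% of coding genes with 100 or more counts had a ratio past it. Equal levels lay outside the interval for 6 members, with Egr1, Dusp1 and Fosb higher in replicate 2 under TMM and Jun, Junb and Fosl2 lower, against 35.9% of all genes and 39.6% of coding genes with 100 or more counts. The median log2 ratio was 0.07 over the members and 0.00026 over all genes.

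The direction of these ratios depends on the scaling. Spike-in RNA took 2.91% of counts in replicate 1 and 4.59% in replicate 2, and scaling by spike-in counts in place of TMM shifted log2 ratios by -0.65, and by slightly less for genes of few counts because of the prior count. Replicate 2 was higher for 6 members under TMM and, by spike-in counts, for Fosb alone. The 5 that changed sign were Ier2, Dusp1, Egr1, Fos and Atf3. Under that scaling Egr1 had a log2 ratio of -0.34, Fos -0.56, Jun -0.86 and Fosb 0.54, so Fosb was then within 1.5-fold. Because the shift is nearly common to all genes, it keeps the differences among members and moves the other lists alike.

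**Figure D4:**
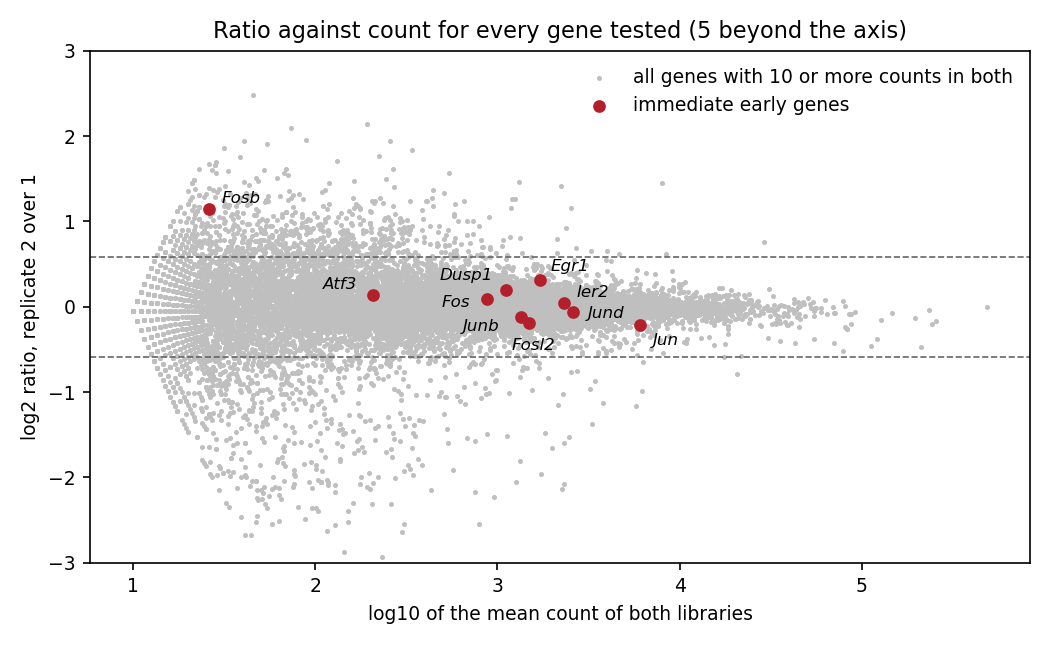
Log2 ratio of replicate 2 over replicate 1 (TMM scaling) against log10 of the mean count, for all 18318 genes tested in grey and the 10 members in red, with dashed lines at 1.5-fold. The members lie inside the grey cloud at their count, and Fosb sits where low counts spread the ratios, while 5 genes lie beyond the axis.

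The leading isoform of each member was the same in both libraries. Fos-201, the coding transcript, took 89.9% of Fos in replicate 1 and 94.0% in replicate 2, and noncoding models took the rest, 10.2% and 6.01%. By the authors' posterior mean Fos-201 took 87.2% and 88.6%. Dusp1-202, which is coding, took 86.6% and 88.2% of Dusp1. Models with a retained intron took 13.4% and 11.8% of it, of which Dusp1-204 had 8.91% and 9.10%. Egr1-202 took 90.7% and 92.2% of Egr1, and Egr1-201, also coding, the rest. Atf3-201 took 100% of Atf3 in both libraries, or 81.7% and 82.0% by the authors' posterior mean, and the 6 other members had 1 transcript model each. Junos, an antisense gene that overlaps 689 nt of Jun, stood at 2.43 TPM and 1.54 TPM, far under Jun itself.

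Other immediate early genes were, like most genes, close between the libraries under TMM. Of 33 listed, 31 reached 10 counts in each library, and of these 30 were within 1.5-fold, with a median log2 ratio of 0.01. This is near the share over all genes, of which 16654 of the 18318 tested were within 1.5-fold. The 3 highest were Zfp36l1, an AU-rich element binding protein gene, at 121.6 TPM and 139.2 TPM, Myc, the growth regulator, at 72.6 TPM and 77.3 TPM, and Gadd45g, a stress and growth arrest gene, at 71.2 TPM and 62.4 TPM. Ptgs2, the inducible prostaglandin synthase, was the exception, at 0.550 TPM and 0.280 TPM from 50 and 31 counts, with a log2 ratio of -0.71 (interval -1.44 to -0.07).

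Genes that act before and after the members were within 1.5-fold as well under TMM, as most genes were (16654 of 18318 tested). By spike-in counts most of these listed genes were past it, lower in replicate 2. Under TMM, all 9 other MAP kinase phosphatases were within it, with a median log2 ratio of -0.02. Dusp6, an FGF feedback gene, stood at 50.8 TPM and 50.5 TPM, Dusp7 at 35.8 TPM and 33.4 TPM, and Dusp10 at 15.4 TPM and 14.6 TPM. So were all 19 upstream kinases and factors, at a median of 0.02, with the kinase genes Map2k2 at 150.5 TPM and 153.3 TPM and Map2k1 at 79.9 TPM and 78.8 TPM among the highest. So were the 13 bZIP partners with enough counts of 14 listed, at a median of -0.05. Their leading genes were Atf4, the effector of the integrated stress response, at 115.1 TPM and 110.0 TPM, Atf2 at 45.4 TPM and 48.4 TPM, and Nfe2l2, the regulator of the oxidative stress response, at 40.7 TPM and 44.1 TPM.

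Among 12 heat shock genes 11 were within 1.5-fold under TMM, near the share over all genes (16654 of 18318), with a median log2 ratio of -0.01. The constitutive chaperone Hspa8 stood at 1831 TPM and 1783 TPM, Hsp90aa1 at 698.8 TPM and 756.4 TPM, and Hspb1 at 656.0 TPM and 649.1 TPM. Hspa1b, a chaperone gene induced by heat, was at 2.75 TPM and 1.76 TPM, a log2 ratio of -0.62 (interval -0.97 to -0.30). Its value is uncertain, because reads can be shared with the near-identical copy Hspa1a.

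Of 13 integrated stress response genes 12 were within 1.5-fold under TMM, at a median of 0.02, and of all genes tested 16654 of 18318 were. The list was led by Phgdh at 155.4 TPM and 150.4 TPM, Atf4, and Psat1 at 94.8 TPM and 88.6 TPM, of which Phgdh and Psat1 encode serine synthesis enzymes. Trib3, a target of ATF4, was at 3.14 TPM and 5.07 TPM, a log2 ratio of 0.69 (interval 0.39 to 0.99). The 12 hypoxia genes had a median of 0.17 under TMM, with 9 higher in replicate 2 and 3 lower. Their counting interval lay above equal for 7 and below it for 1, against 17.5% and 18.3% of all genes. By spike-in counts 11 were lower in replicate 2 and 1 higher, at a median of -0.48. The glycolytic genes Ldha and Pgk1 stood at 1212 TPM and 1224 TPM and at 179.8 TPM and 240.0 TPM, and the glucose transporter Slc2a1 at 121.1 TPM and 134.1 TPM. Car9, a carbonic anhydrase induced in hypoxia, was the only one past 1.5-fold, at 2.04 TPM and 3.80 TPM, a log2 ratio of 0.78 (interval 0.42 to 1.18).

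Under TMM, cartilage, skeletal muscle and erythroid markers had median ratios further from equal than the immediate early genes, whose median was 0.07. By spike-in counts the median of the immediate early genes was -0.58, which is further from equal than that of the cartilage markers. All 12 cartilage markers were higher in replicate 2 under TMM, 8 of them past 1.5-fold at a median log2 ratio of 0.62, although by spike-in scaling 4 were higher and the median was -0.03. They had a summed level of 623.1 TPM in replicate 1 and 978.4 TPM in replicate 2. The largest ratios were those of Matn1, a cartilage matrix gene, at 1.42 (25.1 TPM and 66.9 TPM), Col2a1, the main cartilage collagen, at 0.75 (181.7 TPM and 305.2 TPM), and Matn3 at 0.70 (8.60 TPM and 14.0 TPM). Among the most abundant were also Col9a3, a minor cartilage collagen, with 111.1 TPM and 171.8 TPM, and Cnmd, or chondromodulin, with 68.1 TPM and 107.5 TPM.

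All 12 skeletal muscle markers were lower in replicate 2, none of them past 1.5-fold under TMM at a median of -0.44 and all 12 past it by spike-in counts at a median of -1.09. They had sums of 4812 TPM and 3576 TPM, led by Actc1 at 1182 TPM and 893.0 TPM, Acta1 at 1033 TPM and 800.7 TPM, and Myl1 at 627.3 TPM and 464.5 TPM. Erythroid markers, 7 of 10 with enough counts, had a median of -0.38 under TMM, with none past 1.5-fold, and of -1.03 by spike-in counts, with 6 past it, lower in replicate 2. The sums over the 9 erythroid markers quantified were 22201 TPM and 16862 TPM, and the globin gene Hba-a2 stood at 11988 TPM and 9204 TPM. In bulk tissue, fewer cells of a type and less RNA per cell cannot be told apart. The part of these marker differences in the ratios of the immediate early genes was not tested.

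Markers of the remaining cell types had medians nearer to equal than those of cartilage, muscle and erythroid markers under TMM, the scaling of the medians given next. The medians of facial mesenchyme and of neuron and glia markers were still further from equal than the 0.07 of the immediate early genes. That of endothelium markers was slightly further, at -0.0746 against 0.0675. The 6 neutrophil markers with enough counts of 9 had a median of -0.03, and all 9 summed to 68.4 TPM and 67.7 TPM. The 10 macrophage markers had a median of -0.03 and sums of 420.1 TPM and 398.2 TPM. The 10 epidermis, 10 endothelium and 10 neuron and glia markers had medians of -0.01, -0.07 and 0.12. The 12 facial mesenchyme markers, all at 1 TPM or more and led by Col3a1, Dcn and Msx1, had a median of 0.14, so genes that define the labelled tissue were present in both libraries. Of these lists none had a member past 1.5-fold under TMM. By spike-in counts 5 neutrophil, 7 macrophage, 8 epidermis, 9 endothelium, 3 neuron and glia and 5 facial mesenchyme markers were past it, all lower in replicate 2. Of the 9 bone markers Bglap was past it under TMM, at -0.96 (28.6 TPM and 14.5 TPM), a value that near-identical neighbouring copies make uncertain. No marker in the tables was listed at 0 in both libraries.

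**Figure D5:**
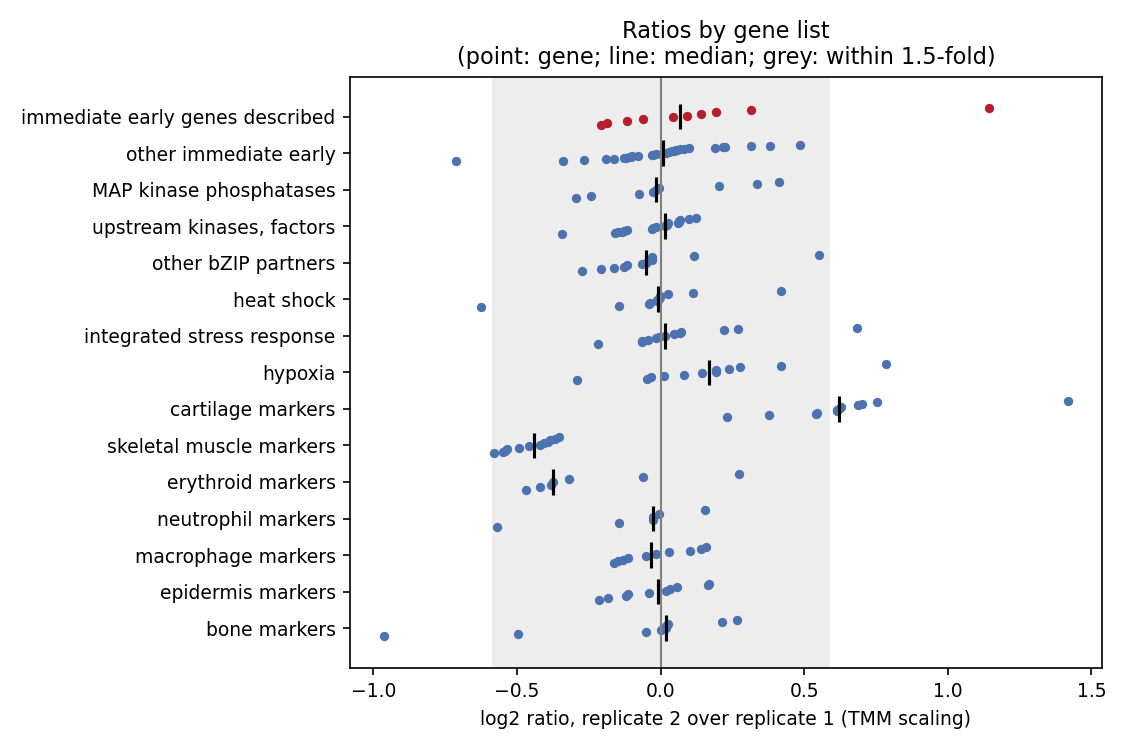
Log2 ratio of replicate 2 over replicate 1 (TMM scaling) for each gene (points) of the members in red and of 14 other lists in blue, with the median as a black line and the range within 1.5-fold in grey. Cartilage markers sit to the right under this scaling, at a median of 0.62 (-0.03 by spike-in counts), and skeletal muscle markers to the left, at -0.44. The immediate early, heat shock and integrated stress response lists sit near 0, and the hypoxia list is at 0.17 (-0.48 by spike-in counts).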

How the data were processed

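Total RNA of 2 pools of embryonic facial prominence was sequenced and quantified by the authors on assembly mm10 with annotation M4, per the labels and deposited notes. Which aligner, quantification program and strand setting they used is not given in the sources used here. Per the file headers, the authors gave for each gene and transcript an expected count, TPM, FPKM, posterior means, and the percent of a gene taken by each transcript. Deposited credibility bounds of TPM, whose level is not stated, were recorded as a score and are not reported. No scaling between libraries was found. Expected counts on genes summed to 36048494 in replicate 1 and 36774513 in replicate 2. Spike-ins (97 rows) and 26248 numbered rows were left out of levels and ratios. Gene names, for 42462 of 43346 identifiers, and coordinates came from GENCODE M21 (GRCm38).

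Levels are the mean TPM ± SD. For ratios, expected counts were rounded and scaled by TMM in edgeR 4.0.16 (R 4.3.3) with a prior count of 2, for the 18318 genes that reached 10 counts in each library. Called means past 1.5-fold. Intervals are 95% Clopper-Pearson. The ratio step was tested on simulated data. Alternatives were DESeq2 1.42.0 size factors, spike-in and upper quartile scaling, posterior means, FPKM, other prior counts, filters and thresholds, and each library alone. Tables and intervals were made in Python 3.11.15 (pandas 2.3.3, numpy 2.4.6, scipy 1.17.1), figures in matplotlib 3.10.9.

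The members and lists were chosen with earlier results of these data known. Named were all members and, in each other list, the 3 genes with the highest mean TPM and up to 3 with the largest ratio past 1.5-fold; a gene the rule names is not reported here. Fosl1 was named to complete its family, and Gm11175 and Junos for overlapping members.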

Additional observations from a re-analysis of the deposited data

How the results depend on the processing

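The count of members past 1.5-fold was 1 under TMM, DESeq2 size factors, upper quartile scaling, no filter on counts, and both a lower threshold and one of 2-fold. The median member level of 23.3 TPM was 15.5 in FPKM, a unit with another total. Either library alone gave 21.2 to 25.4 TPM. With 100 counts required in both libraries, 0 members were past 1.5-fold, since Fosb then was not tested. Scaling by spike-in counts put 5 members past it, Jun, Junb, Jund, Fosl2 and Ier2, all lower in replicate 2, and it put past it 23 other immediate early genes, 6 MAP kinase phosphatases, 17 upstream genes, 11 bZIP partners, 10 heat shock genes, 8 integrated stress response genes and 4 hypoxia genes. Which scaling fits the amount of RNA per cell was not tested. The ratio has no value without either library. Depth limits Fosb, at 15 and 37 counts. No paired analysis was possible because the series has a single group.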
